A study of Mus musculus with 16 samples.

Results

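The mitosis genes described here are 34 genes that carry cells from mitotic entry through chromosome segregation to the final cut between daughter cells. They were taken from a list of names, and each gene is represented by the probe set that names that gene alone, or, where several do, by the brightest on average. All 34 of 34 listed genes were measured, among 19938 genes on the array. Top2a had 2 such probe sets, and each of the other 33 genes had 1. The shared level of the list on an array, called the mitosis level below, is the median log2 value of the 34 genes on that array.

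The series profiled mouse B cell precursor acute lymphoblastic leukemia, a cancer of immature B cells, on 16 expression arrays of total RNA. Leukemic marrow of mice with the genotype Bank1+/- + Pax5+/- was on 6 arrays (Bank1/Pax5 leukemia), that of Pax5+/- mice on another 6 (Pax5 leukemia), and proB and preB cells of wild-type (WT) marrow on 4. Pax5 is a transcription factor that sets B cell identity, Bank1 is a scaffold protein of B cell signalling, and each mutant allele was heterozygous in the mice that carried it, so the Pax5+/- genotype is common to both leukemia groups. All animals lived in a conventional facility with exposure to common pathogens, no treatment was applied, and the sources used here give neither ages nor the way the alleles were made. The leukemia arrays are labelled as total bone marrow while the WT arrays hold a precursor fraction, so each leukemia comparison with WT also compares whole marrow with a fraction. For WT the cell type entry reads as leukemic, against the other entries, and the design text speaks of 3 WT mice while 4 WT arrays are deposited as biological replicates. They were used as 4 WT replicates. In whole marrow, fewer cells of a type and less RNA per cell cannot be told apart.

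In a dividing cell, mitotic genes are transcribed together late in the cycle. Transcription factors of the MuvB complex, with B-Myb and Foxm1, act at their promoters, which are known for CCAAT boxes and for a short element called the cell cycle homology region. The products then work in sequence: cyclins with Cdk1 start mitosis, kinetochores and motor proteins move chromosomes on the spindle, a checkpoint holds back the anaphase-promoting complex (APC/C) until every chromosome is attached, and cytokinesis proteins part the daughter cells. Among normal pro-B and pre-B cells of the marrow, some stages but not all divide rapidly, under interleukin signals and the pre-B cell receptor.

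The median probe set of an array was at 6.58 to 6.71, and single values between 3.82 and 14.3 on the log2 scale. All 10 measured B precursor markers, such as Cd79a, lay above 7.01, the median of named probe sets, on each WT array. On the leukemia arrays 7 to 10 of the 10 did so, with Rag1, Dntt, Blnk or Vpreb1 as the markers at or below it. Of 9 monocyte and macrophage markers, 8 were higher in Bank1/Pax5 leukemia and 6 in Pax5 leukemia than in WT, and of 6 megakaryocyte markers 6 and 5 were higher. Of 7 NK cell markers, 4 were lower in Bank1/Pax5 leukemia and 6 in Pax5 leukemia. Over all genes, 1356 were called higher and 2543 lower in Bank1/Pax5 leukemia than in WT, and 1901 higher and 2754 lower in Pax5 leukemia than in WT. After cyclic loess these splits were 2079 higher with 1933 lower, and 2302 higher with 2136 lower.

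The mitosis level set 2 arrays apart from all others. On Bank1/Pax5 arrays 1 to 6 the level was 9.92, 10.03, 9.68, 7.84, 9.62 and 8.57. The Pax5 arrays 1 to 6 had 9.66, 10.10, 9.73, 9.71, 9.82 and 10.10, and the WT arrays 1 to 4 had 9.999, 10.17, 10.17 and 9.92. Arrays 4 and 6 of Bank1/Pax5 leukemia were therefore the low ones, and the other 4 Bank1/Pax5 arrays lay within the range of the Pax5 and WT arrays or just below it. The mean level was 9.28 ± 0.87 over the Bank1/Pax5 arrays (SD, n = 6), 9.85 ± 0.20 over the Pax5 arrays (SD, n = 6) and 10.06 ± 0.13 over the WT arrays (SD, n = 4).

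**Figure D1:**
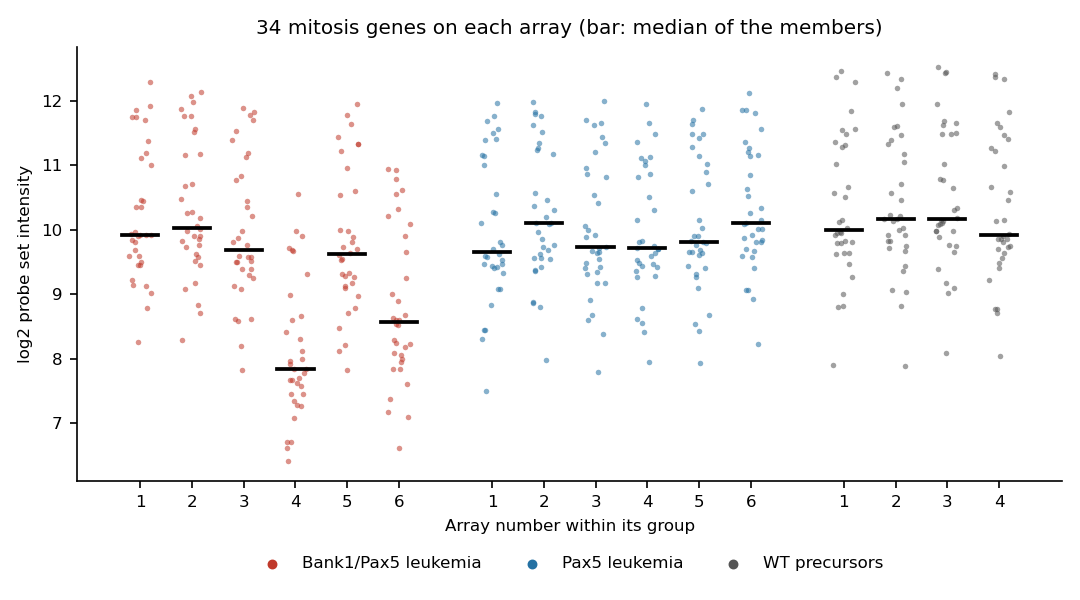
Log2 probe set intensity (vertical axis) of the 34 mitosis genes on each array (horizontal axis, array number within its group). Points are genes and bars are the median of the 34 genes, which is 7.84 on array 4 and 8.57 on array 6 of Bank1/Pax5 leukemia and at least 9.62 on every other array.

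The fall on these arrays ran through the whole list. Array 4 held the lowest of the 16 values for 33 of 34 mitosis genes, against 14.1% of all genes, and the exception was Birc5, which was lowest on array 6. Arrays 4 and 6 lay below the other 14 arrays for 34 of 34 mitosis genes, against 4.58% of all genes. Set against the median of the other 4 Bank1/Pax5 arrays, the mitosis genes were lower by a median of 4.09-fold on array 4 (median log2 difference -2.03, from -2.67 for Bub1 to -1.02 for Birc5). On array 6 the median was 2.43-fold lower (median log2 difference -1.28, from -1.64 for Kif2c to -0.81 for Mad2l1). The same medians over all genes were 0.02 on array 4 and -0.03 on array 6. A difference of at least 2-fold was reached by 34 of 34 mitosis genes on array 4 and by 31 of 34 on array 6, against 4.1% and 2.04% of all genes. These 2 arrays were picked by their level, so the values describe them and carry no test.

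By role, the medians on array 4 ran from -1.60 for the transcription and proliferation marks to -2.16 for the chromosome structure genes. On array 6 they ran from -1.07 for the chromosomal passenger complex to -1.49 for the chromosome structure genes. Array 4 was the lower of the pair for all genes except Birc5. Prc1 stood almost level on both, at 7.85 on array 4 and 7.85 on array 6, whereas Bub1 was 7.58 on array 4 and 8.90 on array 6, and Mad2l1 was 9.67 and 10.95. Only 4 of the 34 genes on array 4 and 1 on array 6 came under 7.01, so for most genes the lower values were still above the middle of the array.

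**Figure D2:**
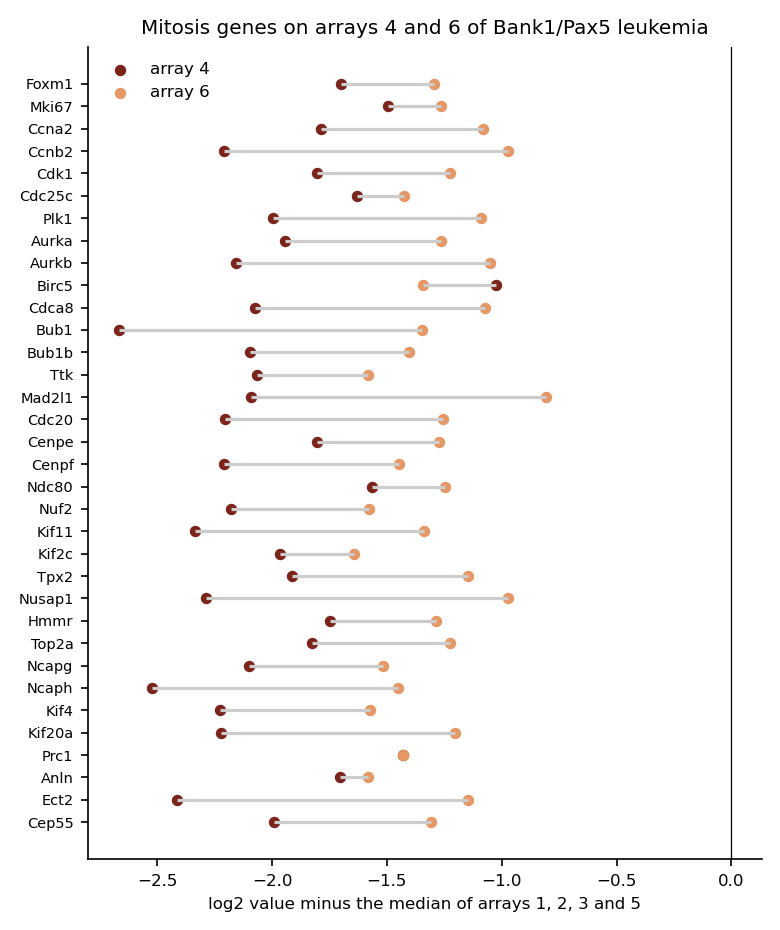
Log2 value of each of the 34 mitosis genes on arrays 4 and 6 of Bank1/Pax5 leukemia minus the median of Bank1/Pax5 arrays 1, 2, 3 and 5 (horizontal axis), with genes in order of role. All points lie left of 0, and array 4 lies further left than array 6 for every gene except Birc5.

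Other lists differed in how they behaved on these 2 arrays. Of 24 DNA replication and G1/S genes, 23 had arrays 4 and 6 below the other 14 arrays, against 4.58% of all genes. The level of that list was 8.30 on array 4 and 9.01 on array 6, against 9.79 to 10.22 on the other Bank1/Pax5 arrays. Of 10 genes that brake the cycle, 2 had both arrays below the other 14, the kinase inhibitor Cdkn1b and Cdkn2a. Cdkn2a was dim there, at 6.64 on array 4 and 6.62 on array 6. The level of the brakes was 9.33 and 9.21 on these arrays, against 9.18 to 9.76. Marker lists moved as well. Array 4 had the lowest B precursor level of all arrays (8.85), with 8 of 10 markers above 7.01, and the highest levels of the 9 monocyte and macrophage markers (11.67) and of the 6 megakaryocyte markers (11.76). Array 6 had a B precursor level of 10.12, with 9 of 10 markers above 7.01, a monocyte and macrophage level of 9.07 and a megakaryocyte level of 10.65. Across groups, the B precursor level was 8.85 to 12.12 in Bank1/Pax5 leukemia, 9.14 to 12.46 in Pax5 leukemia and 12.62 to 12.68 in WT. The monocyte and macrophage level was 9.06 to 11.67 in Bank1/Pax5 leukemia, 8.17 to 10.20 in Pax5 leukemia and 6.39 to 6.60 in WT. Low B precursor levels also occurred on Pax5 arrays 5 (9.14) and 3 (9.48), where the mitosis levels were 9.82 and 9.73. Bank1/Pax5 array 5 came near array 4 in its monocyte and macrophage level (10.72) and megakaryocyte level (11.49), at a mitosis level of 9.62. The part of these markers in the mitosis level was not tested.

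**Figure D3:**
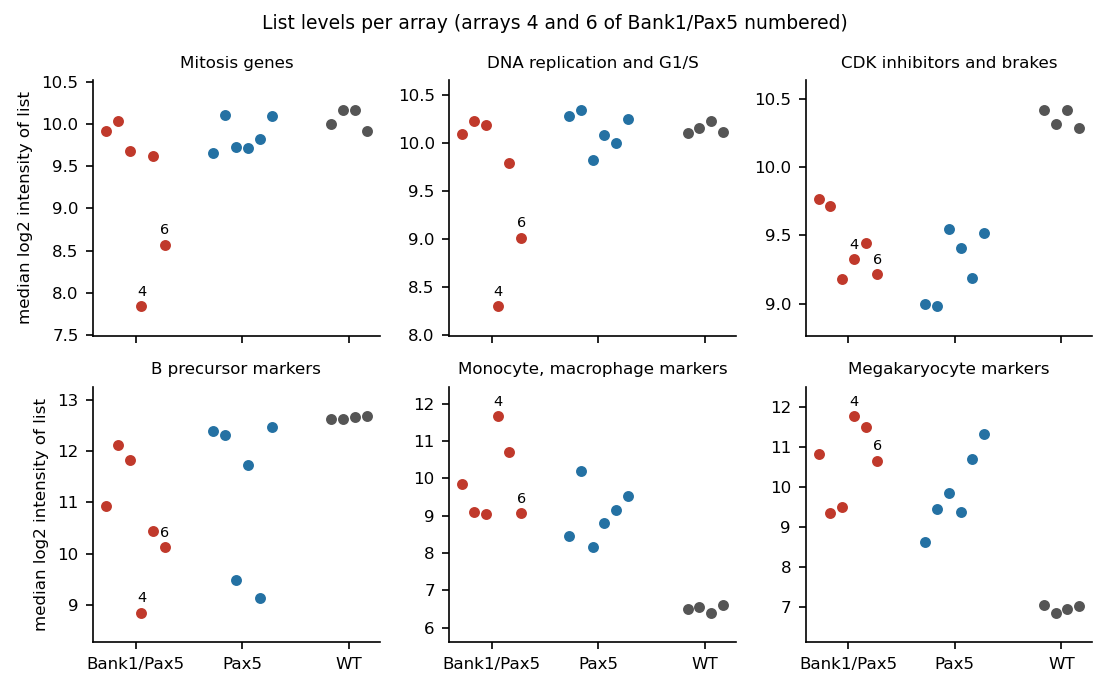
Median log2 intensity (vertical axis) of the mitosis genes and of 5 other lists on each array, by group (horizontal axis), with 1 point per array and arrays 4 and 6 of Bank1/Pax5 leukemia numbered. Both arrays are lowest for the mitosis genes and for the DNA replication genes, and lie among the other leukemias for the cycle brakes, while array 4 alone is lowest for B precursor markers and highest for macrophage and megakaryocyte markers.

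Because the 34 genes moved together, their promoters were read for the letters that mark this gene class. RefSeq windows of 300 bases, from 250 before to 50 after the gene start (build GRCm38.p6), were matched for 28 of the 34 genes, and Foxm1, Ccna2, Cdc25c, Aurkb, Tpx2 and Kif20a are named only. Each window was searched on both strands for CCAAT, for TTTGAA or TTCGAA as cell cycle homology region letters, and for TTCCCGC or TTGGCGC as E2F letters. CCAAT occurred in 19 of 28 mitosis genes (67.9%), against 41.1% of 27025 genes. Cell cycle homology region letters occurred in 22 of 28 (78.6%), against 21.7% of all genes, and E2F letters in 5 of 28 (17.9%), against 7.79%. Both of the first kinds occurred in 18 of 28 (64.3%), against 8.61%. The 45 CCAAT matches had a median position of -65 from the gene start, and the 31 cell cycle homology region matches a median of -5, with 15 of them after the start. Matches of different kinds overlapped in 3 pairs, in the windows of Cdca8 and Ect2. Unlike the match totals, this count ran over every window of a gene. The windows of Ect2 share bases, so its pair was counted in each. A match describes letters and does not show a bound site. The 5 windows below, the first in alphabetical order that hold both kinds of letters, show how they are laid out. Capitals mark CCAAT or its reverse ATTGG and the cell cycle homology region letters, and each run reads in the direction of transcription. Aurka lies at chr2:172370521-172370820 (minus strand), Bub1 at chr2:127831810-127832109 (minus strand), Bub1b at chr2:118597961-118598260 (plus strand), Ccnb2 at chr9:70421505-70421804 (minus strand) and Cdc20 at chr4:118437294-118437593 (minus strand).
Aurka: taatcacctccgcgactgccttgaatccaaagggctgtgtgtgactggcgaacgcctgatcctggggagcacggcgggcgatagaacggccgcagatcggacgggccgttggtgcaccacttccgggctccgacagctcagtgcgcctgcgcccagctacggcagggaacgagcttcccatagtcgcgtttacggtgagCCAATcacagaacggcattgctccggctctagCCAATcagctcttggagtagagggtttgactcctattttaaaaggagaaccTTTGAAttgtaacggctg
Bub1: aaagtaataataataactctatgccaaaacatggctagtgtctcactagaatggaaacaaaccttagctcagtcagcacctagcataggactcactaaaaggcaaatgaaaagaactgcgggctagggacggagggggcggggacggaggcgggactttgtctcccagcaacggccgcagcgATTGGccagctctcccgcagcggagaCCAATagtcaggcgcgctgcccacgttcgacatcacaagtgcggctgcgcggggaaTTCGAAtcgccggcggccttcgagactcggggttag
Bub1b: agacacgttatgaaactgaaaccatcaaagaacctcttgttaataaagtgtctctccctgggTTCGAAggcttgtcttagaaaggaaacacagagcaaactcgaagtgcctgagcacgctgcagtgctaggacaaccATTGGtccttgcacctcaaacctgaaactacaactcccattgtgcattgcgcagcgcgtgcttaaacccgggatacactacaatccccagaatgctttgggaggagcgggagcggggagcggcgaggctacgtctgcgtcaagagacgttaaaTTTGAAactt
Ccnb2: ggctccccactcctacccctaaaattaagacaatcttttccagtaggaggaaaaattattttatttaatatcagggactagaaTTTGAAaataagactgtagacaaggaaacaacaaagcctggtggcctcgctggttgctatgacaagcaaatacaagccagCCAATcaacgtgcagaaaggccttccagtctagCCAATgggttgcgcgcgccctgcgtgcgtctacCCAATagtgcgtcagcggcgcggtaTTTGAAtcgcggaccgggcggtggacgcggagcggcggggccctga
Cdc20: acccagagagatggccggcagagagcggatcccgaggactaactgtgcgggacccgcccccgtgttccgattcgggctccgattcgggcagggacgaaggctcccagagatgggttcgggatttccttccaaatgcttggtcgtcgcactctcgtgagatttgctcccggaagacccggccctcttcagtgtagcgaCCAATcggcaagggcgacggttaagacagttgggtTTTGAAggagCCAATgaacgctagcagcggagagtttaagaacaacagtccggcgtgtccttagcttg
In Aurka, Bub1 and Ccnb2 the CCAAT letters stand before the gene start and cell cycle homology region letters just after it. Ccnb2 holds 3 CCAAT matches and a further homology match far upstream. Cdc20 has its homology match between 2 CCAAT matches, and Bub1b has a single CCAAT between 2 homology matches. On the arrays, these 5 genes were lower on array 4 than the median of the other 4 Bank1/Pax5 arrays by 3.84-fold (Aurka), 6.36-fold (Bub1), 4.28-fold (Bub1b), 4.62-fold (Ccnb2) and 4.62-fold (Cdc20). Birc5, Mad2l1, Nuf2, Nusap1 and Ncaph, which held neither kind of letters in these windows, were lower on array 4 by 2.03-fold, 4.26-fold, 4.54-fold, 4.88-fold and 5.74-fold.

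**Figure D4:**
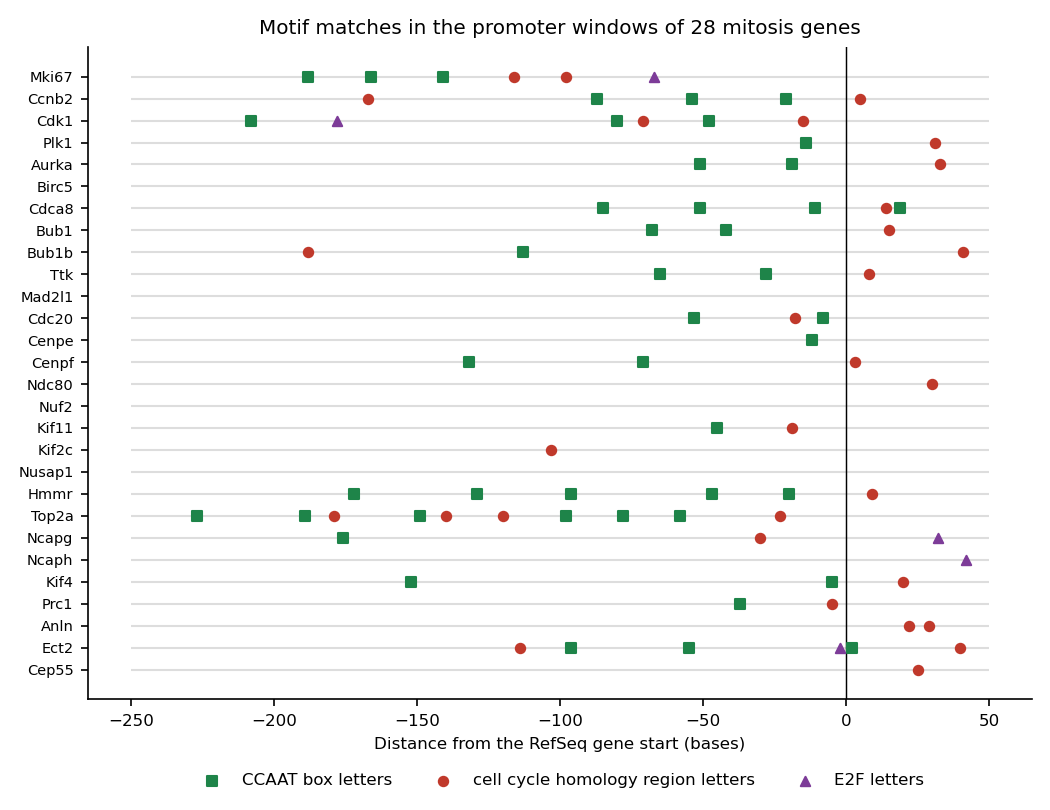
Positions of CCAAT, cell cycle homology region and E2F letters in the promoter windows of 28 mitosis genes (horizontal axis, bases from the RefSeq gene start; 1 line per gene). Most CCAAT matches lie before the start, and 15 of the 31 homology region matches lie after it.

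Comparing the groups, 8 of 34 mitosis genes were lower in Bank1/Pax5 leukemia than in WT and 0 were higher, where 12.8% of all genes were called lower and 19.6% called in either direction. The 8 were Foxm1, Mki67, Ccna2, Cenpe, Tpx2, Prc1, Ect2 and Cep55. All 34 differences were negative, with a median log2 difference of -0.90 against -0.03 over all genes. In Pax5 leukemia, which is compared with the same WT arrays, 0 of 34 were called by limma (1 at an unadjusted p under 0.05), where 23.3% of all genes were called. The median log2 difference was -0.26, against -0.05 over all genes, and ranged from -0.72 for Ccnb2 to -0.03 for Kif20a. Between Bank1/Pax5 and Pax5 leukemia, 0 of 34 were called (7 at an unadjusted p under 0.05), where 6.7% of all genes were called, with a median log2 difference of -0.58 against 0.02 over all genes. The count of 8 was 14 without Bank1/Pax5 array 1, 20 without array 2, 10 without array 3, 9 without array 4, 6 without array 5 and 3 without array 6. It was 5 without any 1 Pax5 array, 3 without WT arrays 1, 2 or 4, and 2 without WT array 3. In these fits 1840 to 2903 of all genes were called lower, fewest without WT array 3 and most without Bank1/Pax5 array 2. The count was 1 (Prc1) in a fit of the 2 groups alone, where 11.9% of all genes were called lower.

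The fit uses 1 spread per gene for all groups, and the spreads of the groups differed. The median SD of the 34 genes was 0.90 over the Bank1/Pax5 arrays, where all genes had 0.18. Over the Pax5 arrays it was 0.18, where all genes had 0.16, and over the WT arrays 0.12, where all genes had 0.09. Leaving out arrays 4 and 6 brought the Bank1/Pax5 figure to 0.25. These arrays were left out because of the level of the same 34 genes, so the smaller spread and the calls that follow from it are a description of that choice and not a test. In the fit without them, 15 of 34 mitosis genes were lower in Bank1/Pax5 leukemia than in WT (12.3% of all genes called lower), with a median log2 difference of -0.37. In that fit 12 of 34 were lower in Pax5 leukemia than in WT (15.9% of all genes), at a median of -0.26. Between Bank1/Pax5 and Pax5 leukemia 0 were called (4 at an unadjusted p under 0.05; 4.9% of all genes called), the median was -0.04, and 18 of the 34 differences were negative. The fit of Pax5 leukemia and WT alone called 15 of 34 lower (16.1% of all genes called lower). These were Foxm1, Mki67, Ccna2, Ccnb2, Aurkb, Bub1b, Nuf2, Kif11, Tpx2, Nusap1, Top2a, Ncaph, Prc1, Ect2 and Cep55. The SE and adjusted p given below for single genes come from the fit of all 16 arrays. For Pax5 leukemia against WT they thus also carry the spread of the Bank1/Pax5 arrays.

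Counted without a model, 13 of 34 mitosis genes had every Bank1/Pax5 array below every WT array, against 12.3% of all genes. These were Foxm1, Mki67, Ccna2, Ccnb2, Cenpe, Nuf2, Kif11, Tpx2, Nusap1, Top2a, Prc1, Ect2 and Cep55. Every Pax5 array lay below every WT array for 13 of 34, against 13.2% of all genes, namely Foxm1, Mki67, Ccna2, Ccnb2, Bub1b, Mad2l1, Nuf2, Tpx2, Nusap1, Ncaph, Prc1, Ect2 and Cep55. For 0 of 34 were all Bank1/Pax5 arrays below all Pax5 arrays, against 1.87% of all genes.

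**Figure D5:**
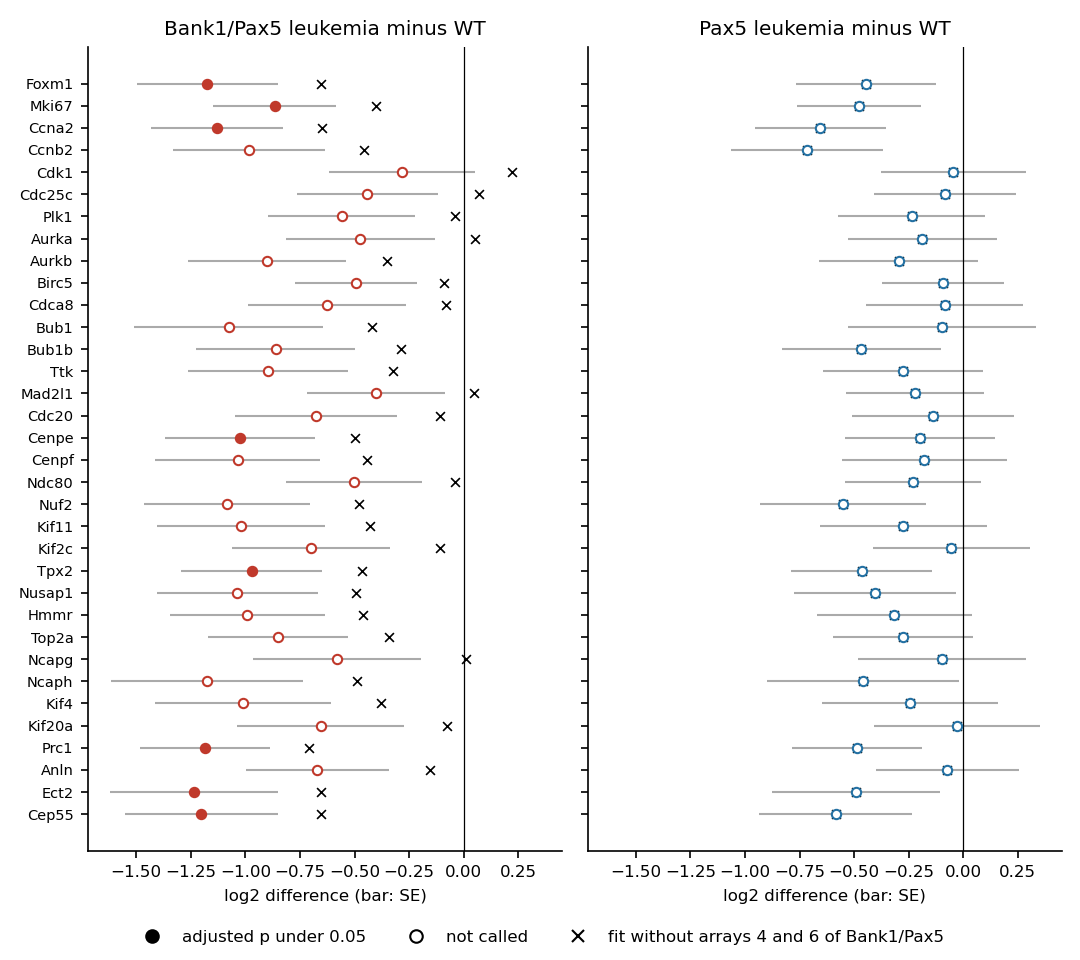
Log2 difference from WT (horizontal axes) of the 34 mitosis genes in Bank1/Pax5 leukemia (left) and Pax5 leukemia (right), with bars for the SE, filled points for adjusted p under 0.05 and crosses for the fit without arrays 4 and 6 of Bank1/Pax5 leukemia. The 8 filled points are all in the Bank1/Pax5 panel, where the crosses lie nearer to 0, and in the Pax5 panel the crosses fall on the circles.

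Foxm1 is the transcription factor that drives mitotic genes. It spanned 7.78 to 9.90 (median 9.39) on the Bank1/Pax5 arrays, 9.66 to 9.92 (median 9.73) on the Pax5 arrays, and 10.15, 10.18, 10.34 and 10.14 on the WT arrays. All leukemia arrays lay below the WT arrays, arrays 4 and 6 of Bank1/Pax5 leukemia by the widest margin. The log2 difference from WT was -1.17 with an SE of 0.32 (adjusted p = 0.0188) in Bank1/Pax5 leukemia and -0.45 with an SE of 0.32 (adjusted p = 0.33) in Pax5 leukemia. Mki67, the Ki-67 protein that coats mitotic chromosomes and is used to mark dividing cells, was 10.55 to 12.30 (median 11.89) in Bank1/Pax5 leukemia, 11.87 to 12.12 (median 11.98) in Pax5 leukemia and 12.46, 12.43, 12.53 and 12.41 in WT. The leukemia and WT arrays again did not overlap. The log2 difference from WT was -0.87 with an SE of 0.28 (adjusted p = 0.0439) in Bank1/Pax5 leukemia and -0.48 with an SE of 0.28 (adjusted p = 0.232) in Pax5 leukemia. The call of Mki67 ended in 14 of 25 alternatives (adjusted p 0.0077 to 0.116), which included leaving out any 1 Pax5 or WT array.

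Among the 6 cyclins and entry kinases, 1 fell in Bank1/Pax5 leukemia against WT, where 12.8% of all genes were called lower, so the count in this small role, like those of 1 in the kinetochore and spindle roles, is near that share. Ccna2, cyclin A2, was 9.91 to 11.87 (median 11.58) in Bank1/Pax5 leukemia, 11.49 to 11.85 (median 11.70) in Pax5 leukemia and 12.29, 12.34, 12.43 and 12.34 in WT, with all leukemias below WT. Its log2 difference from WT was -1.13 with an SE of 0.30 (adjusted p = 0.0165) in Bank1/Pax5 leukemia and -0.65 with an SE of 0.30 (adjusted p = 0.128) in Pax5 leukemia. For Ccnb2, a B-type cyclin that activates Cdk1, the values were 9.69 to 11.98 (median 11.83) in Bank1/Pax5 leukemia, 11.37 to 11.76 (median 11.70) in Pax5 leukemia and 12.37, 12.20, 12.45 and 12.37 in WT. These arrays were also separate, but the differences from WT did not pass, at -0.98 with an SE of 0.35 (adjusted p = 0.0617) in Bank1/Pax5 leukemia and -0.72 with an SE of 0.35 (adjusted p = 0.149) in Pax5 leukemia. Cdk1, the kinase that starts mitosis, differed from its cyclins in that the groups overlapped, with 9.98 to 12.08 (median 11.57) in Bank1/Pax5 leukemia, 11.06 to 11.83 (median 11.49) in Pax5 leukemia and 11.49, 11.59, 11.66 and 11.46 in WT. Bank1/Pax5 array 2 was the highest of all arrays and array 4 the lowest, and the log2 differences were -0.28 with an SE of 0.33 (adjusted p = 0.59) and -0.04 with an SE of 0.33 (adjusted p = 0.934) for Bank1/Pax5 and Pax5 leukemia against WT.

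Cdc25c, a phosphatase that removes the inhibitory phosphates from Cdk1, was 6.42 to 8.29 (median 7.83) in Bank1/Pax5 leukemia, 7.50 to 8.22 (median 7.94) in Pax5 leukemia and 7.91, 7.89, 8.09 and 8.04 in WT. The groups overlapped, and Bank1/Pax5 arrays 1 and 2 were above all WT arrays. Its differences from WT were -0.44 with an SE of 0.32 (adjusted p = 0.368) in Bank1/Pax5 leukemia and -0.08 with an SE of 0.32 (adjusted p = 0.872) in Pax5 leukemia. Plk1, a kinase of mitotic entry and spindle assembly, was 9.31 to 11.56 (median 11.18) in Bank1/Pax5 leukemia, 10.86 to 11.27 (median 11.15) in Pax5 leukemia and 11.37, 11.18, 11.49 and 11.41 in WT. These overlapped too, with differences of -0.56 with an SE of 0.34 (adjusted p = 0.267) in Bank1/Pax5 leukemia and -0.24 with an SE of 0.34 (adjusted p = 0.637) in Pax5 leukemia. Aurka, the spindle pole kinase, had 7.92 to 10.01 (median 9.71) in Bank1/Pax5 leukemia, 9.32 to 9.97 (median 9.57) in Pax5 leukemia and 9.64 to 9.98 in WT.

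None of the 3 members in the role of the chromosomal passenger complex was called against WT in the limma fit of all arrays. Of them 1, Aurkb, reached an unadjusted p under 0.05 in Bank1/Pax5 leukemia. This complex corrects faulty attachments and later directs cytokinesis. Aurkb, its kinase, was 8.996 to 11.52 (median 11.03) in Bank1/Pax5 leukemia, 11.005 to 11.50 (median 11.25) in Pax5 leukemia and 11.56, 11.34, 11.63 and 11.66 in WT, with overlap between groups. The differences from WT were -0.90 with an SE of 0.36 (adjusted p = 0.097) in Bank1/Pax5 leukemia and -0.30 with an SE of 0.36 (adjusted p = 0.583) in Pax5 leukemia. Birc5, survivin, was 8.09 to 9.74 (median 9.26) in Bank1/Pax5 leukemia, 9.08 to 10.01 (median 9.42) in Pax5 leukemia and 9.47, 9.67, 9.66 and 9.41 in WT. Its highest array was Pax5 array 6 and its lowest Bank1/Pax5 array 6, and it had the narrowest drop on array 4 of all 34 genes. The log2 differences from WT were -0.49 with an SE of 0.28 (adjusted p = 0.237) in Bank1/Pax5 leukemia and -0.09 with an SE of 0.28 (adjusted p = 0.837) in Pax5 leukemia. Cdca8, borealin, was 7.67 to 10.18 (median 9.57) in Bank1/Pax5 leukemia, 9.59 to 10.10 (median 9.79) in Pax5 leukemia and 9.81 to 9.98 in WT.

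The 5 genes of the spindle checkpoint and its target gave no call in the limma fit of all arrays. Bub1, Bub1b and Ttk reached an unadjusted p under 0.05 there in Bank1/Pax5 leukemia against WT. Bub1, a checkpoint kinase at kinetochores, was 7.58 to 10.47 (median 10.06) in Bank1/Pax5 leukemia, 10.27 to 10.84 (median 10.49) in Pax5 leukemia and 10.57, 10.71, 10.80 and 10.46 in WT. Bank1/Pax5 array 1 just reached the lowest WT array, while array 4 was the furthest below its group of any mitosis gene. The log2 differences from WT were -1.08 with an SE of 0.43 (adjusted p = 0.0956) in Bank1/Pax5 leukemia and -0.10 with an SE of 0.43 (adjusted p = 0.889) in Pax5 leukemia, and Bub1 had the largest difference between Bank1/Pax5 and Pax5 leukemia, -0.98 with an SE of 0.39 (adjusted p = 0.147). Mad2l1, the checkpoint protein that holds Cdc20 inactive, was 9.67 to 11.79 (median 11.55) in Bank1/Pax5 leukemia, 11.11 to 11.52 (median 11.43) in Pax5 leukemia and 11.55, 11.62, 11.68 and 11.60 in WT. Bank1/Pax5 arrays 1, 2 and 3 were above every WT array, and every Pax5 array was below. Its differences from WT were -0.40 with an SE of 0.32 (adjusted p = 0.404) in Bank1/Pax5 leukemia and -0.22 with an SE of 0.32 (adjusted p = 0.642) in Pax5 leukemia, and that between the leukemias was the smallest of the 34 genes, -0.18 with an SE of 0.28 (adjusted p = 0.739). Bub1b, the BubR1 protein that binds Cdc20, was 8.31 to 10.72 (median 10.17) in Bank1/Pax5 leukemia, 10.06 to 10.52 (median 10.16) in Pax5 leukemia and 10.57 to 10.77 in WT. Ttk, a checkpoint kinase, was 6.62 to 8.83 (median 8.35) in Bank1/Pax5 leukemia, 8.38 to 8.93 (median 8.57) in Pax5 leukemia and 8.71 to 9.07 in WT, and Cdc20, the activator of the APC/C, was 7.34 to 9.86 (median 9.32), 9.18 to 9.69 (median 9.54) and 9.44 to 9.75 in these groups.

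At the kinetochore, the platform that binds microtubules to chromosomes, 1 of 4 genes was called lower in Bank1/Pax5 leukemia than in WT, where 12.8% of all genes were. Cenpe, a kinetochore motor that brings chromosomes to the spindle equator, was 7.70 to 9.84 (median 9.35) in Bank1/Pax5 leukemia, 9.48 to 10.26 (median 9.74) in Pax5 leukemia and 9.97, 10.17, 10.16 and 9.86 in WT. All Bank1/Pax5 arrays lay below WT, while the Pax5 arrays ran past the highest WT array. The log2 differences from WT were -1.02 with an SE of 0.34 (adjusted p = 0.0495) in Bank1/Pax5 leukemia and -0.20 with an SE of 0.34 (adjusted p = 0.7) in Pax5 leukemia. The call of Cenpe ended in 17 of 25 alternatives (adjusted p 0.0109 to 0.116), among them cyclic loess, median centring and leaving out any 1 Pax5 or WT array. Cenpf, a large protein of the outer kinetochore, was 7.08 to 9.58 (median 8.95) in Bank1/Pax5 leukemia, 9.37 to 9.67 (median 9.45) in Pax5 leukemia and 9.64, 9.83, 9.76 and 9.48 in WT, with overlap in both. Its differences from WT were -1.03 with an SE of 0.38 (adjusted p = 0.0696) in Bank1/Pax5 leukemia and -0.18 with an SE of 0.38 (adjusted p = 0.76) in Pax5 leukemia. Ndc80, which grips the microtubule, was 7.29 to 9.14 (median 8.55) in Bank1/Pax5 leukemia, 8.41 to 9.07 (median 8.53) in Pax5 leukemia and 8.80, 8.82, 9.09 and 8.77 in WT. Bank1/Pax5 array 1 was the highest of all arrays, and the differences from WT were -0.50 with an SE of 0.31 (adjusted p = 0.285) in Bank1/Pax5 leukemia and -0.23 with an SE of 0.31 (adjusted p = 0.62) in Pax5 leukemia. Nuf2, its partner in the same complex, was 7.45 to 9.81 (median 9.34) in Bank1/Pax5 leukemia, 9.27 to 9.84 (median 9.44) in Pax5 leukemia and 9.90 to 10.18 in WT, with all leukemias below WT.

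Of the 5 spindle genes, 1 was called lower in Bank1/Pax5 leukemia than in WT, where 12.8% of all genes were. Tpx2, a spindle assembly factor that activates Aurora A, was 7.83 to 9.92 (median 9.56) in Bank1/Pax5 leukemia, 9.55 to 10.01 (median 9.73) in Pax5 leukemia and 10.12, 10.22, 10.31 and 10.15 in WT. No leukemia array reached the WT values, and the log2 differences were -0.97 with an SE of 0.32 (adjusted p = 0.048) in Bank1/Pax5 leukemia and -0.47 with an SE of 0.32 (adjusted p = 0.311) in Pax5 leukemia. The call of Tpx2 ended in 16 of 25 alternatives (adjusted p 0.00837 to 0.119), with the same examples as for Cenpe. Kif11, the motor that pushes spindle poles apart, was 8.66 to 11.20 (median 10.69) in Bank1/Pax5 leukemia, 10.87 to 11.28 (median 11.08) in Pax5 leukemia and 11.32, 11.39, 11.50 and 11.22 in WT. Only the Pax5 arrays overlapped WT, and the differences were -1.02 with an SE of 0.38 (adjusted p = 0.0771) in Bank1/Pax5 leukemia and -0.27 with an SE of 0.38 (adjusted p = 0.632) in Pax5 leukemia. Kif2c, a kinesin that shortens microtubules, was 7.67 to 9.82 (median 9.44) in Bank1/Pax5 leukemia, 9.43 to 9.85 (median 9.68) in Pax5 leukemia and 9.56 to 9.89 in WT. For the microtubule-binding proteins Nusap1 and Hmmr, the Bank1/Pax5 arrays had 8.60 to 11.17 (median 10.69) and 6.71 to 9.02 (median 8.20), the Pax5 arrays 10.81 to 11.17 (median 10.96) and 8.30 to 9.07 (median 8.68), and the WT arrays 11.27 to 11.49 and 8.78 to 9.17.

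The 4 measured genes of chromosome structure gave no call in the limma fit of all arrays. Top2a, Ncaph and Kif4 were at an unadjusted p under 0.05 there in Bank1/Pax5 leukemia against WT. Top2a, the topoisomerase that untangles sister chromatids, was 9.73 to 11.77 (median 11.37) in Bank1/Pax5 leukemia, 11.40 to 11.87 (median 11.64) in Pax5 leukemia and 11.85, 11.95, 11.95 and 11.83 in WT. All Bank1/Pax5 arrays were below WT, and the differences from WT were -0.85 with an SE of 0.32 (adjusted p = 0.0775) in Bank1/Pax5 leukemia and -0.28 with an SE of 0.32 (adjusted p = 0.557) in Pax5 leukemia. Ncapg, a subunit of condensin, was 7.96 to 10.35 (median 9.76) in Bank1/Pax5 leukemia, 9.60 to 10.35 (median 9.86) in Pax5 leukemia and 10.02, 10.21, 10.08 and 9.76 in WT, with wide overlap. Its differences were -0.58 with an SE of 0.38 (adjusted p = 0.315) in Bank1/Pax5 leukemia and -0.10 with an SE of 0.38 (adjusted p = 0.877) in Pax5 leukemia. Kif4, a chromosome-bound kinesin, was 6.72 to 9.23 (median 8.66) in Bank1/Pax5 leukemia, 8.79 to 9.42 (median 9.002) in Pax5 leukemia and 9.28, 9.36, 9.40 and 9.23 in WT. Bank1/Pax5 array 1 reached the lowest WT array, and the differences were -1.01 with an SE of 0.40 (adjusted p = 0.0933) in Bank1/Pax5 leukemia and -0.25 with an SE of 0.40 (adjusted p = 0.687) in Pax5 leukemia. Ncaph, the condensin subunit that closes the ring, was 7.46 to 10.48 (median 9.89) in Bank1/Pax5 leukemia, 9.83 to 10.37 (median 10.08) in Pax5 leukemia and 10.46 to 10.65 in WT.

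Of the 5 cytokinesis genes, 3 were called lower in Bank1/Pax5 leukemia than in WT, where 12.8% of all genes were. Prc1 bundles the microtubules of the spindle midzone, and it was 7.85 to 9.50 (median 9.09) in Bank1/Pax5 leukemia, 9.31 to 9.82 (median 9.51) in Pax5 leukemia and 9.93, 9.997, 10.10 and 9.94 in WT. Leukemia and WT arrays were separate, and the log2 differences from WT were -1.19 with an SE of 0.30 (adjusted p = 0.0116) in Bank1/Pax5 leukemia and -0.49 with an SE of 0.30 (adjusted p = 0.249) in Pax5 leukemia. Ect2, the exchange factor that switches on RhoA at the cleavage site, was 7.99 to 10.68 (median 10.18) in Bank1/Pax5 leukemia, 10.30 to 10.64 (median 10.56) in Pax5 leukemia and 11.03, 11.05, 11.03 and 10.995 in WT. The WT arrays lay close together and stood above all leukemias, and the differences were -1.24 with an SE of 0.39 (adjusted p = 0.0359) in Bank1/Pax5 leukemia and -0.49 with an SE of 0.39 (adjusted p = 0.372) in Pax5 leukemia. Cep55, which recruits the machinery of final abscission, was 7.27 to 9.52 (median 9.06) in Bank1/Pax5 leukemia, 9.08 to 9.57 (median 9.27) in Pax5 leukemia and 9.82, 9.91, 10.08 and 9.81 in WT. It was below WT on all leukemia arrays, with differences of -1.20 with an SE of 0.35 (adjusted p = 0.0257) in Bank1/Pax5 leukemia and -0.58 with an SE of 0.35 (adjusted p = 0.238) in Pax5 leukemia. The calls of Ect2 and Cep55 ended in 8 and 7 of 25 alternatives, for both when any 1 WT array or Bank1/Pax5 array 6 was left out. Anln, anillin, the scaffold of the contractile ring, overlapped between groups at 8.12 to 9.99 (median 9.51) in Bank1/Pax5 leukemia, 9.62 to 10.09 (median 9.81) in Pax5 leukemia and 9.80, 10.02, 9.99 and 9.73 in WT. Its differences from WT were -0.67 with an SE of 0.33 (adjusted p = 0.17) in Bank1/Pax5 leukemia and -0.07 with an SE of 0.33 (adjusted p = 0.889) in Pax5 leukemia. Kif20a, a motor of the midzone, was 7.62 to 10.06 (median 9.76) in Bank1/Pax5 leukemia, 9.64 to 10.31 (median 9.89) in Pax5 leukemia and 9.82 to 10.14 in WT.

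Between the leukemia groups the members with the smallest p were Cenpe, -0.82 with an SE of 0.31 (adjusted p = 0.127), and Prc1, -0.70 with an SE of 0.27 (adjusted p = 0.134), as log2 differences of Bank1/Pax5 minus Pax5 leukemia. Neither passed. For both genes arrays 4 and 6 were the lowest Bank1/Pax5 arrays, arrays 3 and 5 also lay below the Pax5 range, and arrays 1 and 2 lay within it. Without arrays 4 and 6 the log2 differences between the leukemia groups ranged from -0.32 to 0.27 over the 34 genes.

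Further mitotic genes were counted in the same fit, where 12.8% of all genes were called lower in Bank1/Pax5 leukemia than in WT, and 13.8% lower and 9.53% higher in Pax5 leukemia than in WT. Of 17 other kinetochore and centromere genes, 4 were lower in Bank1/Pax5 leukemia than in WT, and 1 was higher in Pax5 leukemia than in WT. The higher one was Cenpw, a histone-fold protein of the inner kinetochore, which was 6.45 to 7.46 in Bank1/Pax5 leukemia, 7.42 to 8.11 in Pax5 leukemia and 6.71 to 6.95 in WT. It was dim in WT, and all Pax5 arrays stood above WT, with a log2 difference of 0.86 with an SE of 0.19 (adjusted p = 0.00559) in Pax5 leukemia against WT and -0.79 with an SE of 0.17 (adjusted p = 0.0163) in Bank1/Pax5 against Pax5 leukemia. Of 20 other spindle and centrosome genes, 6 were lower in Bank1/Pax5 leukemia than in WT and 0 were called in Pax5 leukemia. Among them Kif23, the motor partner of Racgap1 in the midzone, was lower in Bank1/Pax5 leukemia than in WT, -0.89 with an SE of 0.19 (adjusted p = 0.00436), and than in Pax5 leukemia, -0.67 with an SE of 0.17 (adjusted p = 0.0314). Of 12 cohesin, condensin and separase genes, 4 were lower in Bank1/Pax5 leukemia and 1 in Pax5 leukemia. Rad21, the cohesin subunit that separase cuts, had log2 differences from WT of -0.81 with an SE of 0.17 (adjusted p = 0.00319) in Bank1/Pax5 leukemia and -0.52 with an SE of 0.17 (adjusted p = 0.0334) in Pax5 leukemia. Espl1, separase itself, fell in Bank1/Pax5 leukemia against Pax5 leukemia, -1.07 with an SE of 0.24 (adjusted p = 0.0174).

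Of 13 APC/C genes 2 were lower in Bank1/Pax5 leukemia than in WT, a share near the 12.8% of all genes, and 0 in Pax5 leukemia, where 13.8% of all genes were, and of 22 other entry and exit kinases and phosphatases 8 and 2 were lower. The widest difference there was in Cdc25b, a phosphatase that activates cyclin-dependent kinases, at -2.21 with an SE of 0.45 (adjusted p = 0.00294) in Bank1/Pax5 leukemia and -1.91 with an SE of 0.45 (adjusted p = 0.0068) in Pax5 leukemia. Of 11 MuvB, MYB and DREAM factors, from complexes that control mitotic promoters, 5 were lower in Bank1/Pax5 leukemia and 3 in Pax5 leukemia. Lin37, a MuvB subunit, was -0.59 with an SE of 0.08 (adjusted p = 0.000172) in Bank1/Pax5 leukemia and -0.64 with an SE of 0.08 (adjusted p = 8.01e-05) in Pax5 leukemia, and Mybl2, which encodes B-Myb, was -0.79 with an SE of 0.25 (adjusted p = 0.0355) in Bank1/Pax5 leukemia. Of 24 DNA replication and G1/S genes, 1 was lower in Bank1/Pax5 leukemia and 2 in Pax5 leukemia. E2f2, an activating E2F factor, had differences of -2.14 with an SE of 0.46 (adjusted p = 0.00432) in Bank1/Pax5 leukemia and -2.20 with an SE of 0.46 (adjusted p = 0.00323) in Pax5 leukemia. Of the 10 cycle brakes, 5 were lower in Bank1/Pax5 leukemia and 6 in Pax5 leukemia. Cdkn1b, the inhibitor p27, was 9.74 to 10.03 in Bank1/Pax5 leukemia, 9.81 to 10.37 in Pax5 leukemia and 11.38 to 11.42 in WT. Its differences from WT were -1.53 with an SE of 0.10 (adjusted p = 1.29e-07) in Bank1/Pax5 leukemia and -1.26 with an SE of 0.10 (adjusted p = 1.27e-06) in Pax5 leukemia.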

How the data were processed

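Per the submitters' processing notes, the authors made the values with RMA through oligo, with no version given, and the deposited unit is log2 probe set intensity. The values were used without further scaling, and the sources used here name no hybridisation batches. Of 35556 probe sets, 21789 named 1 gene, 1621 several and 12146 none in the platform annotation. For 999 genes with several probe sets the highest mean was kept, leaving 19938 genes, and 91 probe sets had no current gene record.

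With limma 3.58.1 in R 4.3.3, all 16 arrays (6 Bank1/Pax5, 6 Pax5, 4 WT) entered a single linear model with 1 mean per group and empirical Bayes moderation. Calls required an adjusted p under 0.05 by the Benjamini-Hochberg method over all genes (two-sided). SE is the moderated standard error, and the number of arrays limits the precision. The procedure was tested on simulated data, where recovery of changed genes was required only with a spread shared by the groups. No limit was set there on false calls.

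The members and lists were chosen with earlier results of these data known. Full statistics were given for called members, for 10 members listed in the analysis plan, and for the members of largest and smallest difference between the leukemia groups in each role. From each other list at most the 4 called genes of smallest p could be named. Replicate numbers recur across groups, but deviations of same-numbered arrays from their group means correlated between -0.38 and 0.32, so they were not taken as pairs. Alternatives were a filter on dim probe sets, the mean of a gene's probe sets, median centring, cyclic loess, robust moderation with a variance trend, weights per array or per group, only the 2 groups compared, a replicate block and leaving out each array. Leaving out arrays 4 and 6 of Bank1/Pax5 leukemia was chosen after seeing the data. Other lists were markers of erythroid, neutrophil, T, NK, plasma and stromal cells beside those reported, and their levels are in the closing section.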

Additional observations from a re-analysis of the deposited data

Results flagged for a closer look

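Of 105 sets of member or level values in a group, 5 had a highest or lowest array far from the rest by Dixon's criterion, and chance alone would mark about 1 in 20. The criterion uses the gap between the outermost array and the next. Arrays 4 and 6 of Bank1/Pax5 leukemia, both low, can therefore mask each other in it. Plk1 was 10.86 on Pax5 array 3, against 11.12 to 11.27 on the other Pax5 arrays. Bub1b was 10.52 on Pax5 array 6, against 10.06 to 10.19 on the others. Mad2l1 was 11.11 on Pax5 array 4, against 11.37 to 11.52, and Ect2 was 10.30 on the same array, against 10.54 to 10.64. Ndc80 was 9.09 on WT array 3, against 8.77 to 8.82 on the other WT arrays.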

How the results depend on the processing

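In Bank1/Pax5 leukemia against WT the 8 called mitosis genes became 16 without dim genes, 4 after median centring, 21 with array weights, 21 with weights per group, 1 with only the 2 groups compared, 1 with the replicate block and 15 without arrays 4 and 6 of Bank1/Pax5 leukemia. Without dim genes, 2128 of all 9865 genes were called lower. Of 19938 genes, 2099 were lower after median centring, 3911 with array weights and 3278 with weights per group. With only the 2 groups 2366 were lower, with the replicate block 1700, and without arrays 4 and 6 2461. In Pax5 leukemia against WT the 0 called became 5 with array weights, 2 with weights per group, 15 with only the 2 groups and 12 without arrays 4 and 6. In the same order, 4811, 4274, 3207 and 3164 of all 19938 genes were called lower. With the replicate block the counts were 1, 0 and 0 for Bank1/Pax5 against WT, Pax5 against WT and Bank1/Pax5 against Pax5 leukemia, at median log2 differences of -0.84, -0.23 and -0.58. Over all genes, 2542, 3112 and 696 were called in these comparisons. Leaving out each array in turn gave 2 to 20 calls with medians of -1.07 to -0.63 in Bank1/Pax5 leukemia against WT, 0 to 2 with -0.31 to -0.22 in Pax5 leukemia against WT, and 0 to 0 with -0.74 to -0.28 between the leukemias. All genes called lower then numbered 1840 to 2903 in the first comparison and 1750 to 3533 in the second. Between the leukemias 725 to 1742 of all genes were called. Over 25 alternatives, Prc1 kept its call in 24 (adjusted p 0.0013 to 0.0512), Ccna2 in 24, Foxm1 in 22, Cep55 in 18, Ect2 in 17, Mki67 in 11, Tpx2 in 9 and Cenpe in 8. All 34 differences stayed negative in Bank1/Pax5 leukemia against WT in the 25 alternatives, with 29 negative without arrays 4 and 6. In Pax5 leukemia against WT 32 to 34 were negative, with at least 1 positive in 7 alternatives, including median centring and the replicate block. Between the leukemias 31 to 34 were negative, with at least 1 positive in 2 alternatives, and 18 without arrays 4 and 6. Among the members given with full statistics, these turned in the 25 alternatives. Top2a in Pax5 leukemia against WT was 0.0955 with the mean of its probe sets, and Mad2l1 between the leukemias was 0.0556 with array weights. Leaving out each array, Cdk1 in Pax5 leukemia against WT ran from -0.11 to 0.0436, and between the leukemias Ccnb2 ran from -0.39 to 0.0665, Cdk1 from -0.40 to 0.0215 and Mad2l1 from -0.30 to 0.1283, with the positive values without replicate 4 of Pax5 leukemia for the first and of Bank1/Pax5 leukemia for the others. In the 150 bases before the start only, 18 members held CCAAT (27.7% of all genes), 10 in place of 22 held cell cycle homology region letters (11.2% of all genes) and 2 in place of 5 held E2F letters (4.52% of all genes, against 7.14% of members). The shorter window leaves out the bases after the start, where 15 of the 31 cell cycle homology region matches lay. The cause of the shifts in the array results was not tested. With 4 to 6 arrays a group, precision is limited by their number, and in the fit of all arrays by the shared spread.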

Other observations

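Levels of marker lists not described above, each the median log2 value over the genes on an array, were as follows. The erythroid level (8 genes) was 6.37 to 10.06 in Bank1/Pax5 leukemia, 6.43 to 6.73 in Pax5 leukemia and 7.10 to 7.42 in WT. The neutrophil level (12 genes) was 7.72 to 12.30 in Bank1/Pax5 leukemia, 7.06 to 11.76 in Pax5 leukemia and 7.33 to 9.50 in WT. The T cell level (9 genes) was 6.07 to 7.195 in Bank1/Pax5 leukemia, 5.72 to 6.24 in Pax5 leukemia and 6.46 to 6.61 in WT. The NK cell level (7 genes) was 5.77 to 7.82 in Bank1/Pax5 leukemia, highest on array 6, 5.52 to 5.89 in Pax5 leukemia and 8.07 to 8.89 in WT. The plasma cell level (6 genes) was 8.16 to 9.32 in Bank1/Pax5 leukemia, 7.70 to 8.69 in Pax5 leukemia and 7.98 to 9.51 in WT. The stromal and endothelial level (9 genes) was 7.99 to 10.14 in Bank1/Pax5 leukemia, 7.95 to 10.17 in Pax5 leukemia and 6.60 to 6.65 in WT.

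The second probe set of Top2a lay between 4.29 and 5.12 on all arrays, against 9.73 to 11.95 for the one used. At this dim level it was 4.75 to 5.12 on the Pax5 arrays and 4.40 to 4.445 on the WT arrays, opposite in direction to the one used. Aurka was singled out after its values were seen: taken relative to the mitosis level of the same array, its log2 value was -0.02 to 0.13 on the Bank1/Pax5 arrays, -0.41 to -0.13 on the Pax5 arrays and -0.45 to -0.19 on the WT arrays. The 2 leukemia groups thus did not overlap on this scale, while its log2 values themselves did. No other mitosis gene separated the leukemia groups in this way, and the share over all genes was not taken. Against WT, 4 mitosis genes (Ccna2, Nuf2, Tpx2 and Cep55) had all leukemia arrays lower on this scale and 30 overlapped.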
